A study of Brassica oleracea with 12 samples.

Results

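Gene expression in the white center of variegated leaves (S3_C) was compared with that in green leaves before any white appeared (S1) in the ornamental kale line 'JC007-2B' (*Brassica oleracea* var. *acephala*). Each group had 3 mRNA-seq libraries, so 6 of the 12 libraries of the series entered the comparison. All genes above 0 FPKM (fragments mapped to a gene, relative to its transcript length and to the size of the library) in at least 1 of these 6 libraries were taken, which gave 43007 of the 45325 genes in the table. 'JC007-2B' is a double haploid line, so all libraries share 1 genotype, and the plants were grown in greenhouses. S1 was sampled from entirely green leaves without their veins. S3_C was sampled from the middle of leaves whose center is white and whose margin is green, after the plants had passed through a cold period. The stage, the cold, the colour and the region of the leaf therefore change together between S1 and S3_C, and their effects cannot be told apart in this comparison. The remaining libraries, 3 of the green margin of the same leaf stage (S3_S) and 3 of an albino stage (S2), are given only beside the genes described. The labels do not say whether the S1 libraries came from separate plants, and p-values measure only the spread between the libraries.

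Leaf cells become green when proplastids develop into chloroplasts. This needs chlorophyll and carotenoids, nuclear-encoded subunits of the photosystems and their antennae, and plastid ribosomes of bacterial type that translate the genes of the plastid itself. In the stroma, Rubisco fixes CO2 that carbonic anhydrase helps to supply, and the Calvin cycle turns it into sugar phosphates. In young leaves the same cells also divide and grow, so that replication and ribosomal genes are strongly expressed until growth turns to expansion. White tissue lacks working chloroplasts and lives on sugar from green cells.

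The 6 libraries were close to each other in total FPKM but not in its distribution. The sums were 447579 to 461587 FPKM in S1 and 430937 to 435919 FPKM in S3_C, and the relative depth, estimated from the smallest steps of low values, was 1 to 1.305 in S1 and 1.17 to 1.36 in S3_C. The 100 most abundant genes took 20.3 to 29.4% of the sum in S1 and only 11.8 to 14.7% in S3_C, where more genes were above 0 (36554 to 36992 against 33912 to 35158). FPKM is a share of the library, so a smaller share of the top genes leaves more for all others. Over the 24761 genes that averaged 1 FPKM or more, the median log2 fold change of S3_C against S1 was 0.60 as deposited and 0.02 after the libraries were scaled by the median of ratios. How much of this shift comes from the top genes was not tested. A call is said to have held without a library when it was made on both scales in the fit that left this library out. Direction and counts depended on this scale, so the log2 fold change of most genes is given on both. The words "rose" and "fell" are used of genes called on both. FPKM values, summed levels, the overlap of groups, and each standard error with its adjusted p are from the deposited scale. Libraries are named S1_1 to S1_3 and S3_C_1 to S3_C_3 after their labels. S1_1 stood apart within S1, with higher photosynthesis and lower ribosomal levels, and the S1 libraries had Pearson r on the log2 scale of 0.923 to 0.969 with each other.

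**Figure D1:**
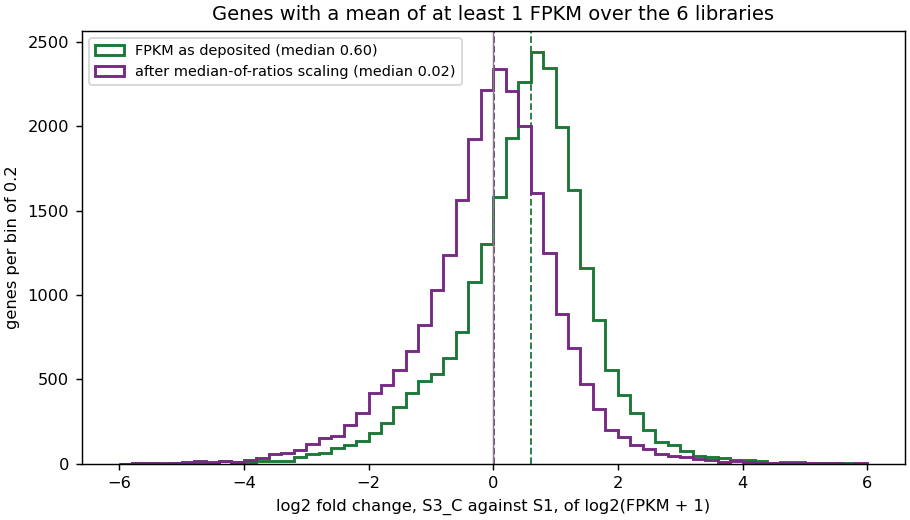
Distribution of the log2 fold change of S3_C against S1 over 24761 genes, as numbers of genes per bin of 0.2, for FPKM as deposited (green) and after median-of-ratios scaling (purple). The dashed lines mark the medians of 0.60 and 0.02, so the same genes sit to the right of 0 on the deposited scale and around 0 after scaling, and 15 and 16 genes lie outside the range drawn.

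A gene was called when its Benjamini-Hochberg adjusted p in limma on log2(FPKM + 1) was under 0.05 and its absolute log2 fold change was over 1. On the deposited scale 7948 genes were called, 18.5% of those tested, with 6682 higher (15.5%) and 1266 lower (2.94%) in S3_C. After scaling 4348 (10.1%) were called, 1896 higher (4.41%) and 2452 lower (5.7%), so the share of higher calls went from 84.1% to 43.6%. All 1896 genes that were higher after scaling were also higher as deposited (4.41% of the genes tested), and 1245 genes were lower on both scales (2.89%), 7.3% in all. The S3_C and S1 values did not overlap for 45.1% of the genes, 37.2% with S3_C higher and 7.94% with S3_C lower. Between S3_C and the green margin, compared on the deposited scale only, 2.59% of the genes were called. These percentages are the background for the counts below. Without any 1 library the deposited count lay between 3915, without the third S1 library, and 8459, without the first. Without the first S3_C library it was 4953, and the lower calls ranged from 591 without the third S1 library to 2033 without the first. Lower calls were also fewer without each S3_C library, at 676, 593 and 714. The counts of list members without single libraries given below are on both scales. No count over all genes on both scales is given for those fits, so a background share cannot be set beside them.

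**Figure D2:**
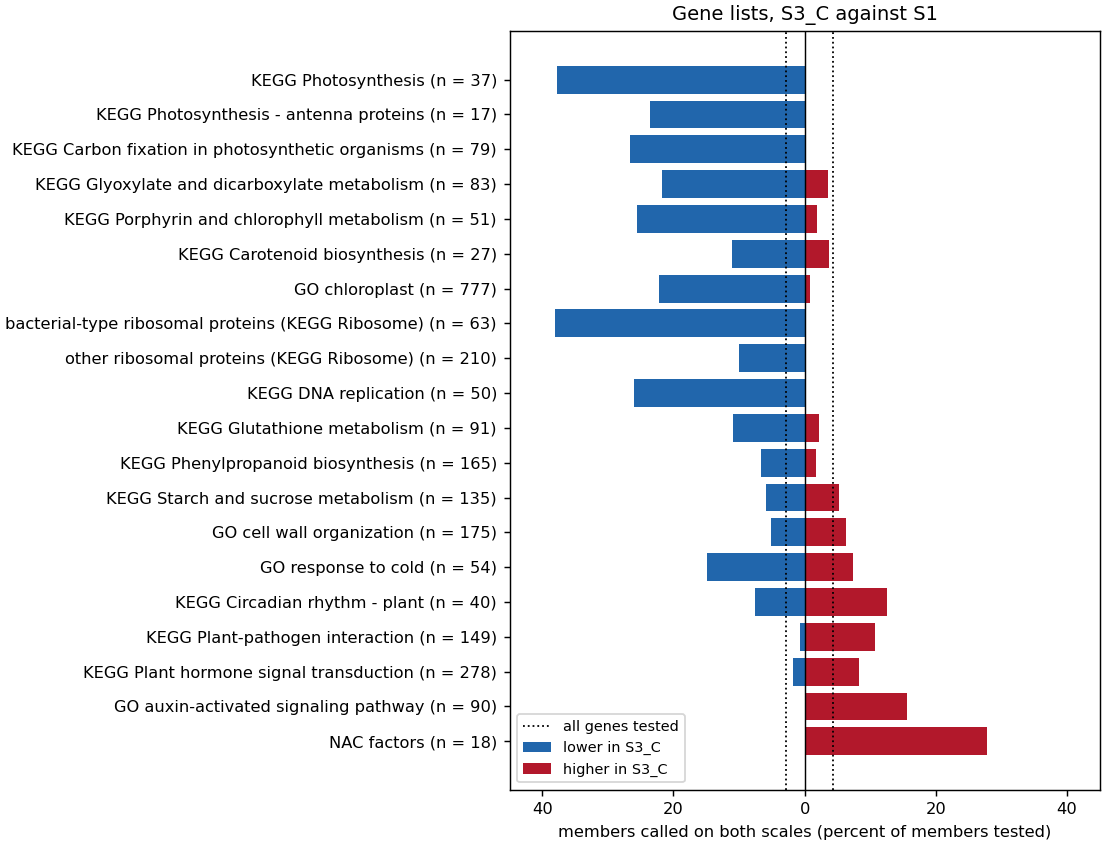
Percent of the members of 20 gene lists called on both scales as lower (blue, left) or higher (red, right) in S3_C against S1, with the number of members tested in brackets. The dotted lines mark 2.89% lower and 4.41% higher over all 43007 genes; photosynthesis and the bacterial-type ribosomal proteins reach furthest to the left, and the NAC factors furthest to the right.

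Genes of carbon fixation held some of the largest decreases. Bo5g155090, a chloroplast beta carbonic anhydrase that interconverts CO2 and bicarbonate, had 3652, 172 and 602 FPKM in the 3 S1 libraries and 0.497, 0.447 and 0.649 FPKM in the S3_C libraries. Every S3_C value was under 1 FPKM and every S1 value over 100 FPKM (log2 fold change -8.89 ± 1.05 SE, adjusted p = 0.0061, -9.37 after scaling). The green margin of the same leaf stage had 2022, 343 and 1293 FPKM, within the range of S1. A further pair of carbonic anhydrases fell as well. *CA2* (Bo2g012160) fell from 520.4, 37.8 and 91.9 to 0.365, 0.571 and 0.776 FPKM (log2 fold change -6.30 ± 0.91 SE, adjusted p = 0.0082, -6.78 after scaling), and Bo1g158950 from 1034, 63.6 and 275 to 0.3199, 0.0279 and 0.0655 FPKM (log2 fold change -7.87 ± 0.95 SE, adjusted p = 0.0063, -8.27 after scaling). In S1 the first library was the highest of its group by several fold for all 3 genes. Bo5g155090 and Bo1g158950 did not hold without S1_3, S3_C_1 or S3_C_2 (adjusted p up to 0.055 and 0.058). CA2 held only without S1_1 or S1_2 (adjusted p up to 0.068).

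Rubisco small chains, the nuclear-encoded subunits of the carboxylating enzyme, fell in the same way. Bo6g059930 had 1665, 318 and 546 FPKM in S1 and 2.17, 3.25 and 0.589 FPKM in S3_C (log2 fold change -7.90 ± 0.68 SE, adjusted p = 0.0051, -8.48 after scaling). The row Bo4g137140;Bo4g137150, which joins a pair of neighbouring genes, went from 3598, 513 and 776 to 8.18, 7.19 and 2.24 FPKM (log2 fold change -7.50 ± 0.82 SE, adjusted p = 0.0058, -8.16 after scaling). Bo4g144000, the most abundant of them, went from 5130, 932 and 1484 to 53.8, 60.9 and 22.04 FPKM (log2 fold change -5.49 ± 0.82 SE, adjusted p = 0.0087, -6.21 after scaling), so 22.0 FPKM or more remained in white tissue. Small chain genes are near-identical copies and a read could align to several places, so how the authors' counting split reads between these rows is uncertain. Bo7g080710, annotated only with Rubisco activity, fell from 146, 30.9 and 66.8 to 0.537, 0.459 and 0.429 FPKM (log2 fold change -5.53 ± 0.53 SE, adjusted p = 0.0053, -6.001 after scaling). Bo6g059930, Bo4g137140;Bo4g137150 and Bo7g080710 held on both scales whichever single library was left out. Bo4g144000 held only without S1_1 or S1_2 (adjusted p up to 0.067).

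Of 20 genes of the Calvin cycle and CO2 supply looked for by their *Arabidopsis* locus, 9 were found, and 7 of these fell, both carbonic anhydrases of this list among them. This count was 7 and 6 without S1_1 or S1_2, 0 without S1_3, S3_C_1 or S3_C_2 and 1 without S3_C_3. *GAPB*, a subunit of the plastid glyceraldehyde-3-phosphate dehydrogenase that reduces the fixed carbon, had 1439, 321 and 469 FPKM in S1 and 50.7, 35.3 and 31.3 FPKM in S3_C (log2 fold change -3.94 ± 0.61 SE, adjusted p = 0.0096, -4.66 after scaling). *PRK*, phosphoribulokinase, which makes the acceptor of CO2, had 129.9, 20.96 and 27.2 against 8.27, 3.31 and 5.12 FPKM (log2 fold change -2.79 ± 0.72 SE, adjusted p = 0.035, -3.45 after scaling). Bo3g149690, a chloroplast fructose-bisphosphate aldolase, had 814, 332 and 379 against 97.8, 64.6 and 96.9 FPKM (log2 fold change -2.45 ± 0.48 SE, adjusted p = 0.017, -3.18 after scaling), and *PGK1*, phosphoglycerate kinase, had 395, 107 and 126 against 39.2, 26.8 and 26.5 FPKM (log2 fold change -2.49 ± 0.53 SE, adjusted p = 0.021, -3.21 after scaling). Over the whole KEGG pathway of carbon fixation, 21 of 79 members fell and none rose on both scales, with a median log2 fold change of -0.71 as deposited and -1.27 after scaling, against 0.22 and 0.01 over all genes. Without each library in turn, 2 to 19 members were called on both scales, 19 without the first S1 library, 17 without the second, 4 without the third and 3, 2 and 6 without each S3_C library. GAPB, Bo3g149690 and PGK1 held only without S1_1 or S1_2 (adjusted p up to 0.069, 0.085 and 0.088). PRK held only without S1_1 (adjusted p up to 0.12).

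Photosystem genes fell by different amounts. Of the 37 members of the KEGG photosynthesis pathway, 14 fell on both scales and none rose, and the median log2 fold change was -1.55 (-2.19 after scaling). PsbS, the photosystem II protein that turns excess light energy into heat, is encoded by a pair of genes that both fell. Bo8g021860 had 616, 246 and 295 FPKM in S1 and 8.99, 5.45 and 7.25 FPKM in S3_C (log2 fold change -5.46 ± 0.39 SE, adjusted p = 0.0045, -6.14 after scaling). Bo6g003410 had 733, 305 and 343 against 39.9, 42.2 and 38.3 FPKM (log2 fold change -3.37 ± 0.40 SE, adjusted p = 0.0061, -4.10 after scaling) and so kept more of its level. Bo9g017950, PsaN, a lumenal subunit of photosystem I, was near 1 FPKM or below in white tissue, with 0.4003, 1.02 and 0.778 FPKM against 64.5, 27.98 and 34.6 FPKM in S1 (log2 fold change -4.57 ± 0.34 SE, adjusted p = 0.0046, -5.07 after scaling). Bo6g033160, annotated to photosystem I in the thylakoid, fell from 438, 196 and 333 to 6.55, 5.11 and 3.81 FPKM (log2 fold change -5.66 ± 0.34 SE, adjusted p = 0.0044, -6.33 after scaling), and Bo3g148990, PsaK, from 173, 64.2 and 67.1 to 13.4, 12.3 and 11.6 FPKM (log2 fold change -2.77 ± 0.40 SE, adjusted p = 0.0083, -3.47 after scaling). Bo8g021860, Bo6g003410, Bo9g017950 and Bo6g033160 held on both scales whichever single library was left out. Bo3g148990 did not hold without S3_C_1 or S3_C_2 (adjusted p up to 0.057). The number of pathway members called on both scales was 16 and 17 without the first or second S1 library, 4 without the third, and 3, 3 and 6 without each S3_C library.

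Antenna proteins, which bind chlorophyll and pass light energy to the reaction centers, had 4 of 17 members that fell and none that rose, and the median log2 fold change was -1.24 (-1.96 after scaling). *LHCA6* (Bo8g068320) of photosystem I had 199, 59.1 and 80.01 FPKM in S1 and 7.04, 3.46 and 4.84 FPKM in S3_C (log2 fold change -4.06 ± 0.49 SE, adjusted p = 0.0062, -4.72 after scaling). Bo9g008350, an LHCB2-type antenna protein of photosystem II, went from 33.6, 13.97 and 22.6 to 5.02, 5.49 and 3.84 FPKM (log2 fold change -2.01 ± 0.33 SE, adjusted p = 0.01, -2.65 after scaling). In the green margin it stood at 132, 90.8 and 48.8 FPKM, above every S1 library. Summed over the 17 members, the antenna level was 8215, 3674 and 4072 FPKM in S1, 2031, 1838 and 2564 FPKM in S3_C and 11052, 9770 and 11080 FPKM in S3_S. White tissue thus kept antenna transcripts at a summed level below all S1 libraries, while the green margin exceeded them. Leaving out single libraries gave 5, 4 and 2 called members for the S1 libraries and 2, 0 and 2 for the S3_C libraries. LHCA6 did not hold without S3_C_2 (adjusted p up to 0.051). Bo9g008350 held only without S1_1 or S1_2 (adjusted p up to 0.064).

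**Figure D3:**
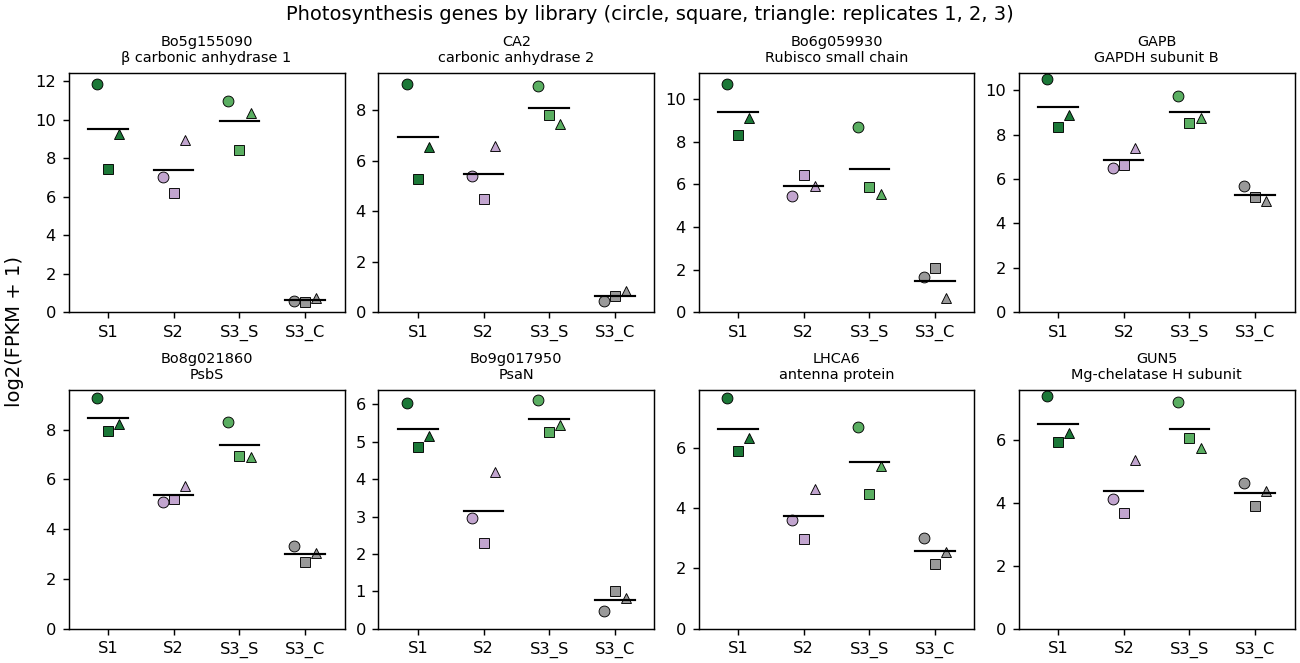
Level of 8 photosynthesis genes in each library as log2(FPKM + 1), in panels with their own axes; points are single libraries, bars are group means, and symbols give the replicate number. In every panel the 3 S3_C libraries lie below the 3 S1 libraries, and the first S1 library is the highest of its group.

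Photorespiration, which recovers the product of oxygen fixation by Rubisco through peroxisomes and mitochondria, was tested in 5 of 11 genes looked for, and 2 of them fell. Bo5g130300, of the aldolase-type family to which glycolate oxidase belongs, had 707, 155 and 314 FPKM in S1 and 50.9, 40.4 and 53.7 FPKM in S3_C (log2 fold change -2.74 ± 0.57 SE, adjusted p = 0.02, -3.46 after scaling). Bo8g108620, the T-protein of glycine cleavage, had 678, 238 and 297 against 116, 74.03 and 79.5 FPKM (log2 fold change -2.03 ± 0.50 SE, adjusted p = 0.031, -2.76 after scaling). Bo5g130300 and Bo8g108620 held only without S1_1 or S1_2 (adjusted p up to 0.094 and 0.11). The KEGG pathway of glyoxylate and dicarboxylate metabolism, which holds these steps, had 18 lower and 3 higher of 83 members on both scales, with 4 lower without S1_3 or S3_C_2 and 19 without S1_1. The higher members were 4 without S1_1, 1 without S3_C_3 and 0 without each of the others.

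Ammonium released there is taken up again by glutamine synthetase, and Bo8g030490, a gene of this enzyme, went from 529, 153 and 255 to a narrow 49.6, 49.98 and 48.5 FPKM (log2 fold change -2.45 ± 0.48 SE, adjusted p = 0.016, -3.18 after scaling). Bo9g023870, a ferredoxin-nitrite reductase of plastid nitrogen assimilation, had 128, 15.6 and 121 FPKM in S1, with the second library far below the others, and 6.09, 7.803 and 6.46 FPKM in S3_C (log2 fold change -3.04 ± 0.80 SE, adjusted p = 0.038, -3.72 after scaling). The other direction was seen for *GDH1* (Bo9g157440), mitochondrial glutamate dehydrogenase, which in *Arabidopsis* releases ammonium from glutamate when sugar is short. It rose from 9.07, 11.5 and 7.22 to 43.8, 45.7 and 51.5 FPKM (log2 fold change 2.24 ± 0.19 SE, adjusted p = 0.0051, 1.55 after scaling). In the nitrogen pathway as a whole 6 of 47 members fell, with 0 without S1_3 or S3_C_2, and GDH1 was the 1 member that rose on both scales. GDH1 held on both scales whichever single library was left out. Bo8g030490 held only without S1_1 or S1_2 (adjusted p up to 0.08). Bo9g023870 held only without S1_2 (adjusted p up to 0.14).

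Pigment genes were also among the decreases. In the KEGG pathway of porphyrin and chlorophyll metabolism, 13 of 51 members fell and 1 rose on both scales, with 23 lower after scaling. Early in the pathway, a pair of genes of hydroxymethylbilane synthase, which joins porphobilinogen units, fell. Bo9g174550 had 47.3, 80.3 and 114 FPKM in S1 and 16.3, 15.3 and 7.48 FPKM in S3_C (log2 fold change -2.52 ± 0.42 SE, adjusted p = 0.011, -3.22 after scaling), and Bo2g008970 had 38.5, 50.9 and 62.9 against 14.3, 13.4 and 11.4 FPKM (log2 fold change -1.86 ± 0.22 SE, adjusted p = 0.006, -2.56 after scaling). The green margin had levels near those of the white center for both, with 24.5, 11.5 and 8.01 FPKM and 20.7, 13.5 and 12.7 FPKM. At the step into chlorophyll, *GUN5* (Bo3g009280), the large subunit of magnesium chelatase, went from 169, 60.04 and 74.4 to 24.01, 13.98 and 19.97 FPKM (log2 fold change -2.21 ± 0.43 SE, adjusted p = 0.016, -2.92 after scaling). Bo2g008970 held on both scales whichever single library was left out. Bo9g174550 did not hold without S3_C_1 or S3_C_2 (adjusted p up to 0.055). GUN5 held only without S1_1 or S1_2 (adjusted p up to 0.076).

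Protochlorophyllide oxidoreductase performs the light-dependent step of chlorophyll synthesis. Bo8g002560, of type C, fell from 95.9, 42.1 and 52.03 to 12.7, 9.81 and 12.6 FPKM (log2 fold change -2.26 ± 0.32 SE, adjusted p = 0.0082, -2.96 after scaling), and *PORB* (Bo7g111430) went from 87.3, 184 and 140 to 59.2, 52.6 and 33.3 FPKM (log2 fold change -1.46 ± 0.37 SE, adjusted p = 0.033, -2.18 after scaling). *ATCLH1* (Bo5g027670), annotated as a chlorophyllase that cleaves chlorophyll, also fell, from 11.6, 8.68 and 9.86 to 1.03, 0.571 and 1.91 FPKM (log2 fold change -2.38 ± 0.28 SE, adjusted p = 0.0061, -2.89 after scaling). ATCLH1 held on both scales whichever single library was left out. Bo8g002560 did not hold without S1_3, S3_C_1 or S3_C_2 (adjusted p up to 0.056). PORB held only without S1_1 (adjusted p up to 0.11). The number of pathway members called as lower on both scales was 15, 13 and 9 without each S1 library and 9, 8 and 11 without each S3_C library.

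Carotenoid genes mostly did not pass the test on both scales. Of 27 members of the KEGG pathway, 3 fell and 1 rose on both scales, with a median log2 fold change of -0.01 (-0.03 after scaling). When single libraries were left out, 0 to 2 members of this pathway were lower, 0 without S3_C_2. Bo9g161470, phytoene synthase at the entry of the pathway, had 19.2, 9.69 and 11.5 FPKM in S1 and 2.24, 3.58 and 6.13 FPKM in S3_C (log2 fold change -1.56 ± 0.37 SE, adjusted p = 0.029, -2.17 after scaling). The green margin had 27.2, 20.03 and 21.4 FPKM, above every S1 library. *NPQ1* (Bo5g009080), which the KEGG pathway does not list here, is violaxanthin de-epoxidase, which makes zeaxanthin in strong light. It was the 1 member called on both scales of 6 tested from 17 carotenoid genes looked for by locus. After scaling 5 of these 6 were called lower, and their median log2 fold change was -0.63 as deposited and -1.32 after scaling. NPQ1 fell from 21.04, 21.04 and 16.6 to 6.09, 4.05 and 6.06 FPKM (log2 fold change -1.69 ± 0.20 SE, adjusted p = 0.0061, -2.35 after scaling). NPQ1 held on both scales whichever single library was left out. Bo9g161470 held only without S3_C_3 (adjusted p up to 0.093). *ZDS* (Bo5g146930), zeta-carotene desaturase, whose loss gives pale tissue in *Arabidopsis*, was not called on the deposited scale. It had 29.7, 19.6 and 21.8 FPKM in S1 and 18.5, 17.7 and 19.9 FPKM in S3_C (log2 fold change -0.31 ± 0.19 SE, adjusted p = 0.27, -1.01 after scaling). After scaling ZDS had an adjusted p of 0.038 and was called lower, so its call depended on the scale.

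Genes named for variegation in *Arabidopsis* were measured next to these. *IM* (Bo1g027150), the plastid terminal oxidase, had 39.1, 15.6 and 15.4 FPKM in S1 and 18.4, 13.9 and 24.99 FPKM in S3_C, and the groups overlapped (log2 fold change -0.18 ± 0.41 SE, adjusted p = 0.76, -0.88 after scaling). *VAR2*, a thylakoid FtsH protease, shares its row with a neighbouring gene described as an aspartate aminotransferase (Bo4g053780;VAR2), so the level belongs to both. This row went from 88.7, 43.2 and 53.6 to 20.95, 17.4 and 31.4 FPKM (log2 fold change -1.35 ± 0.34 SE, adjusted p = 0.033, -2.06 after scaling), while the green margin had 69.1, 69.6 and 80.4 FPKM. *EGY1* (Bo6g056280), a thylakoid metalloprotease needed for greening in *Arabidopsis*, fell from 40.7, 33.3 and 46.1 to 19.03, 18.5 and 15.7 FPKM (log2 fold change -1.12 ± 0.18 SE, adjusted p = 0.0097, -1.83 after scaling) without overlap. Bo4g053780;VAR2 held only without S1_2 (adjusted p up to 0.11). EGY1 did not hold without S3_C_2 (adjusted p up to 0.052). The names GLK1 and GLK2 were not matched to rows of the table and are not analysed here.

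The 3 candidate genes at the mapped locus for the variegated leaf, on chromosome C03, were not called. Bo3g002070, described as REVEILLE 4, a clock-related transcription factor, had 6.81, 3.599 and 3.34 FPKM in S1 and 10.5, 6.29 and 5.91 FPKM in S3_C (log2 fold change 0.63 ± 0.32 SE, adjusted p = 0.2, 0.01 after scaling). Bo3g002080, described as a hydroxyproline-rich glycoprotein, was below 0.3 FPKM in all 6 libraries, at 0.0399, 0.0611 and 0.0741 FPKM in S1 and 0.121, 0.241 and 0.151 FPKM in S3_C (log2 fold change 0.14 ± 0.05 SE, adjusted p = 0.077, 0.07 after scaling). On the deposited scale every S3_C value exceeded every S1 value, as for 37.2% of all genes, but after scaling the groups overlapped. As deposited, the green margin was higher still at 0.612, 0.696 and 0.393 FPKM. At such levels the pseudocount of 1 compresses the difference, and it was not detectable as a change with this test. Bo3g002090 had 0.109, 0.615 and 1.17 FPKM and 0.119, 0.674 and 0.0663 FPKM, with overlapping groups (log2 fold change -0.32 ± 0.29 SE, adjusted p = 0.45, -0.52 after scaling).

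Ribosomal proteins of bacterial type and other ribosomal proteins both held genes that fell, but the S1 libraries differed between these groups. The KEGG ribosome pathway was split by the type of protein after the values had been seen. Of 63 proteins of bacterial type, as used in plastids and mitochondria, 24 fell and none rose, with a median log2 fold change of -0.52 (-1.18 after scaling). Of the 210 others, which are all members not assigned to the bacterial type, 21 fell and none rose, with a median of -1.17 (-1.88 after scaling). The summed level of the bacterial type was 4725, 4274 and 5355 FPKM in S1 and 1830, 1306 and 1221 FPKM in S3_C, and the groups did not overlap. In the green margin it was 2891, 1340 and 1695 FPKM, also below every S1 library and overlapping with the white center. The summed level of the others was 13525, 35180 and 41803 FPKM in S1 and 13530, 14221 and 9180 FPKM in S3_C. The first S1 library was thus at the level of white tissue. The green margin had 11316, 8354 and 9052 FPKM of these, again below every S1 library. Without the first S1 library 141 of the 210 fell, and without each of the remaining 5 libraries 0 to 3 did. The bacterial type gave 13 to 23 lower members whichever library was left out.

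Bo5g132910, a ribosomal protein S10 of bacterial type, fell from 191, 208 and 254 to 43.9, 29.9 and 18.5 FPKM (log2 fold change -2.86 ± 0.35 SE, adjusted p = 0.0064, -3.57 after scaling). Bo6g119530, described as chloroplastic L31, fell from 9.07, 10.7 and 7.21 to 2.85, 2.496 and 1.63 FPKM (log2 fold change -1.59 ± 0.24 SE, adjusted p = 0.0087, -2.17 after scaling). Bo8g025780, L21, went from 440, 393 and 442 to 176, 127 and 115 FPKM (log2 fold change -1.62 ± 0.40 SE, adjusted p = 0.031, -2.35 after scaling). Among proteins not assigned to the bacterial type, Bo3g178160, L28e, fell from 128, 214 and 266 to 35.2, 32.2 and 15.6 FPKM (log2 fold change -2.84 ± 0.42 SE, adjusted p = 0.0086, -3.56 after scaling). Bo3g004180, S4, fell from 37.4, 106 and 116 to 11.4, 13.1 and 6.27 FPKM (log2 fold change -2.85 ± 0.50 SE, adjusted p = 0.012, -3.54 after scaling). Bo9g008690, L34e, had 33.3, 136 and 207 FPKM in S1 and 12.8, 14.99 and 4.501 FPKM in S3_C (log2 fold change -3.22 ± 0.76 SE, adjusted p = 0.028, -3.91 after scaling). Bo5g132910 and Bo6g119530 held on both scales whichever single library was left out. Bo8g025780 and Bo9g008690 held only without S1_1 (adjusted p up to 0.11 and 0.1). Bo3g178160 did not hold without S3_C_2 (adjusted p up to 0.0502). Bo3g004180 held only without S1_1 or S3_C_3 (adjusted p up to 0.06).

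Replication and division genes were low in white tissue, again with a first S1 library near its level. In the KEGG pathway of DNA replication 13 of 50 members fell and none rose on both scales. Bo7g075190, MCM3, a subunit of the replicative helicase, had 11.3, 41.2 and 31.6 FPKM in S1 and 6.99, 4.55 and 1.44 FPKM in S3_C (log2 fold change -2.43 ± 0.62 SE, adjusted p = 0.034, -3.06 after scaling). Bo3g052800, MCM7 of the same helicase, had 6.59, 26.9 and 18.5 against 4.49, 3.23 and 0.746 FPKM (log2 fold change -2.22 ± 0.63 SE, adjusted p = 0.045, -2.81 after scaling), and *RPA2* (Bo4g154680), which coats single-stranded DNA, had 17.1, 66.99 and 50.1 against 9.07, 7.701 and 1.16 FPKM (log2 fold change -2.79 ± 0.76 SE, adjusted p = 0.04, -3.43 after scaling). Bo7g075190, Bo3g052800 and RPA2 held only without S1_1 (adjusted p up to 0.13, 0.15 and 0.14). Without that library 20 members fell, and without any of the remaining 5 libraries only 1 did. The green margin had 2.36, 0.235 and 0.564 FPKM of MCM3.

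Markers of dividing cells were likewise lower. Of 7 genes found of 12 looked for, 3 fell on both scales. The summed level of the 7 was 51.5, 146 and 112 FPKM in S1 and 27.8, 21.0 and 20.5 FPKM in S3_C. The green margin was also low, at 32.0, 17.6 and 20.1 FPKM. In each S3_C library most of this sum came from the cyclin B1;1 gene given next. *CYC1* (Bo1g003580), described as cyclin B1;1, fell from 35.04, 41.6 and 42.1 to 15.9, 14.6 and 16.98 FPKM (log2 fold change -1.27 ± 0.15 SE, adjusted p = 0.0059, -1.97 after scaling). The B2-type cyclin-dependent kinase at Bo7g061250 (CDKB2) went from 4.01, 30.7 and 19.5 to 2.38, 1.28 and 0.573 FPKM (log2 fold change -2.69 ± 0.72 SE, adjusted p = 0.039, -3.21 after scaling). Its relative at Bo6g120650, also named CDKB2, went from 5.5, 29.4 and 18.5 to 3.35, 1.34 and 1.35 FPKM (log2 fold change -2.44 ± 0.61 SE, adjusted p = 0.032, -3.01 after scaling). CYC1 held on both scales whichever single library was left out. Bo7g061250 and Bo6g120650 held only without S1_1 (adjusted p up to 0.14 and 0.12). Without S1_1, 6 of the 7 markers fell, against 1 without each of the others. In a bulk sample fewer dividing cells and less transcript per cell cannot be told apart.

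**Figure D4:**
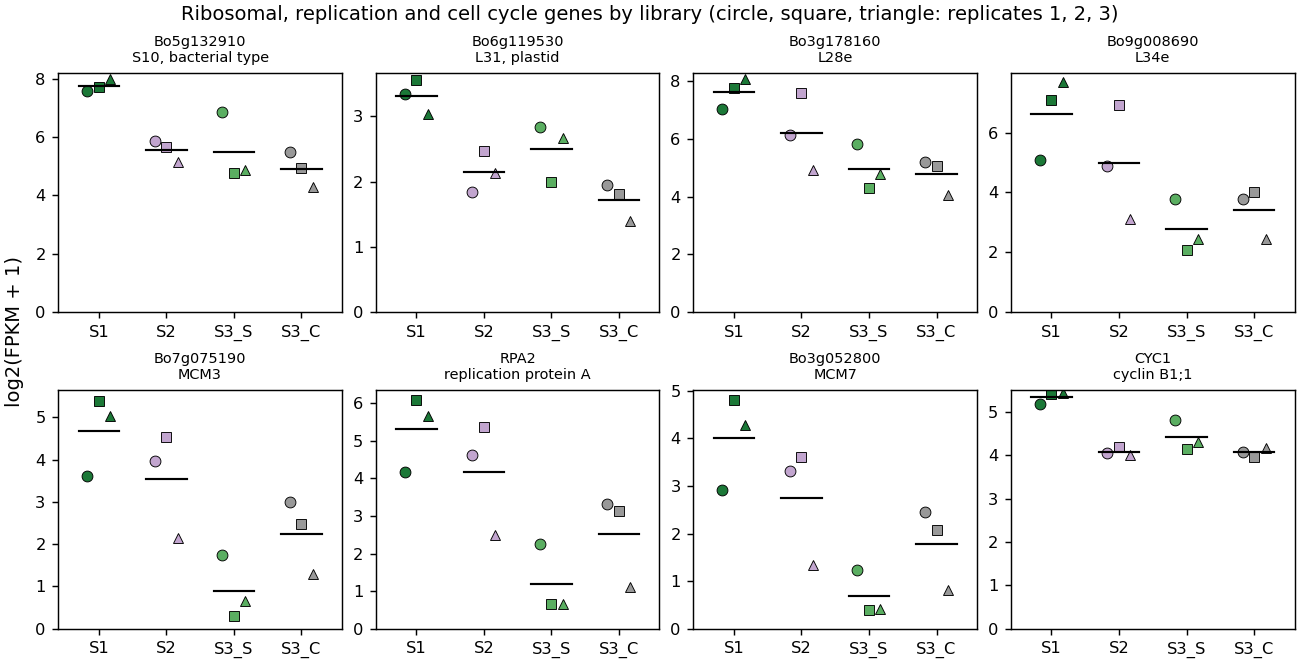
Level of 4 ribosomal, 3 replication genes and 1 cyclin gene in each library as log2(FPKM + 1), in panels with their own axes; points are single libraries, bars are group means, and symbols give the replicate number. The first S1 library (circle) is close to the other S1 libraries for S10, L31 and cyclin B1;1 and the lowest of its group for L28e, L34e and the replication genes.

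Among the increases, xyloglucan endotransglucosylase/hydrolases (XTH), which cut and rejoin wall xyloglucan during growth, held some of the largest. Bo7g114380 had 9.78, 0.192 and 1.03 FPKM in S1 and 127, 567 and 95.2 FPKM in S3_C (log2 fold change 6.01 ± 1.02 SE, adjusted p = 0.011, 5.42 after scaling). Bo2g030310 rose from 0.282, 0.0647 and 0.0714 to 46.7, 115 and 15.2 FPKM (log2 fold change 5.30 ± 0.69 SE, adjusted p = 0.0069, 4.89 after scaling), and *XTH7* (Bo7g118760) from 0.213, 0.622 and 0.159 to 10.8, 11.5 and 10.7 FPKM (log2 fold change 3.19 ± 0.22 SE, adjusted p = 0.0045, 2.77 after scaling). The row Bo9g133260;Bo9g133270, of 2 neighbouring XTH genes, varied most, with 54.05, 209.9 and 3.03 FPKM in S3_C against 0.0737, 0.225 and 0.0441 FPKM in S1 (log2 fold change 5.02 ± 1.37 SE, adjusted p = 0.042, 4.65 after scaling). That row missed the threshold after scaling (adjusted p = 0.072). The family did not move as one: of the 36 members annotated with this activity 4 rose and 3 fell on both scales. Bo4g031120, for example, fell from 8.72, 11.5 and 9.67 to 3.44, 2.703 and 1.65 FPKM (log2 fold change -1.63 ± 0.25 SE, adjusted p = 0.0089, -2.22 after scaling). XTH7 and Bo4g031120 held on both scales whichever single library was left out. Bo7g114380 held only without S1_1 (adjusted p up to 0.12). Bo2g030310 did not hold without S1_2, S1_3 or S3_C_1 (adjusted p up to 0.066). Bo9g133260;Bo9g133270 held only without S3_C_3 (adjusted p up to 0.21). Leaving out single libraries gave 1 to 4 members in each direction.

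Over the term for cell wall organization 11 members rose and 9 fell of 175, and 2 to 15 rose and 3 to 14 fell when single libraries were left out. Bo1g021480, a pectin acetylesterase, went from 5.66, 4.56 and 2.78 to 45.5, 90.7 and 86.7 FPKM (log2 fold change 3.80 ± 0.34 SE, adjusted p = 0.0051, 3.13 after scaling). Bo8g065000, a UDP-glucose 4-epimerase that supplies galactose for wall polymers, went from 18.1, 12.5 and 13.3 to 162, 205 and 272 FPKM (log2 fold change 3.76 ± 0.26 SE, adjusted p = 0.0045, 3.05 after scaling). Outside the wall, Bo3g013820, an alpha-tubulin, rose from 29.2, 30.9 and 26.5 to 89.3, 109 and 101 FPKM (log2 fold change 1.75 ± 0.17 SE, adjusted p = 0.0053, 1.03 after scaling), and *PIP1B* (Bo4g025110), a water channel of the plasma membrane, from 56.1, 54.1 and 44.4 to 179, 187 and 308 FPKM (log2 fold change 2.06 ± 0.30 SE, adjusted p = 0.0085, 1.34 after scaling). Bo8g065000 held on both scales whichever single library was left out. Bo1g021480 did not hold without S3_C_2 (adjusted p up to 0.0502). Bo3g013820 did not hold without S1_2, S1_3 or S3_C_2 (adjusted p up to 0.07). PIP1B held only without S1_1 (adjusted p up to 0.14).

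NAC factors, plant regulators of stress and ageing, had 5 members that rose and none that fell of 18 described as such. *NAC1* (Bo3g185760) was nearly absent from S1 at 0.196, 0.0629 and 0 FPKM and reached 16.9, 14.9 and 12.3 FPKM in S3_C (log2 fold change 3.84 ± 0.22 SE, adjusted p = 0.0044, 3.47 after scaling). *ANAC13* (Bo7g057730), which in *Arabidopsis* signals from mitochondria under stress, went from 2.099, 3.82 and 3.02 to 11.1, 17.9 and 14.6 FPKM (log2 fold change 1.96 ± 0.25 SE, adjusted p = 0.0069, 1.34 after scaling), and the green margin stayed at 2.88, 1.81 and 1.94 FPKM. The 18 factors summed to 27.7, 17.1 and 10.9 FPKM in S1 and 81.9, 74.8 and 137 FPKM in S3_C. In the green margin they summed to 104, 77.1 and 281 FPKM, also above every S1 library. NAC1 held on both scales whichever single library was left out. ANAC13 held only without S1_1 (adjusted p up to 0.083). The number of rising NAC factors was 5, 3 and 2 without each S1 library and 3 without each S3_C library.

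In the KEGG pathway of plant-pathogen interaction 16 of 149 members rose and 1 fell on both scales, while on the deposited scale 50 rose. The number of risen members on both scales was 20 without the first S1 library, 14 without the third S3_C library and 3 without each of the others. Bo4g171890, assigned to the WRKY25 group, rose from 3.82, 1.19 and 0.505 to 50.97, 38.3 and 44.9 FPKM (log2 fold change 4.17 ± 0.43 SE, adjusted p = 0.0056, 3.602 after scaling), and Bo4g187630, assigned to WRKY33, from 1.32, 0.523 and 0.191 to 17.97, 19.7 and 6.16 FPKM (log2 fold change 3.13 ± 0.49 SE, adjusted p = 0.0097, 2.65 after scaling). Both groups belong to defence and heat signalling in *Arabidopsis*. Of 20 genes described as WRKY factors, which do not include these, 1 rose and none fell on both scales (7 higher as deposited), a share of 5.0% beside 4.41% over all genes. Without S1_1 the count of risen genes was 5, without S3_C_3 it was 1 and without each of the others 0. These 20 genes summed to 18.5, 16.9 and 12.5 FPKM in S1 and 66.7, 67.0 and 43.4 FPKM in S3_C. In the green margin they summed to 52.8, 34.8 and 51.3 FPKM, which overlapped with the white center. The risen member, Bo7g115410, described as a probable WRKY60, went from 0.844, 0.642 and 0.662 to 24.6, 27.1 and 5.73 FPKM (log2 fold change 3.30 ± 0.57 SE, adjusted p = 0.012, 2.80 after scaling). *ATMPK3* (Bo3g130040), a MAP kinase of immune signalling, rose from 6.99, 5.73 and 3.26 to 42.8, 50.7 and 21.4 FPKM (log2 fold change 2.60 ± 0.39 SE, adjusted p = 0.0089, 1.93 after scaling). Bo1g103630, a calcium-binding protein of the calmodulin-like type, rose from 2.47, 0.958 and 0.744 to 38.6, 44.7 and 26.03 FPKM (log2 fold change 4.004 ± 0.34 SE, adjusted p = 0.0051, 3.43 after scaling), while the green margin had 4.602, 3.82 and 2.37 FPKM. *GAMMA-VPE* (Bo1g008620), a vacuolar processing protease, rose from 3.99, 3.31 and 1.63 to 104, 33.5 and 95 FPKM (log2 fold change 4.20 ± 0.49 SE, adjusted p = 0.006, 3.56 after scaling). Bo1g103630 held on both scales whichever single library was left out. Bo4g171890 held only without S1_1 or S1_3 (adjusted p up to 0.061). Bo4g187630, Bo7g115410 and ATMPK3 held only without S1_1 or S3_C_3 (adjusted p up to 0.099, 0.11 and 0.1). GAMMA-VPE held only without S1_1 or S3_C_2 (adjusted p up to 0.063). Under the term for defense response 7 members rose and 3 fell of 131, with 0 to 10 and 1 to 4 when single libraries were left out. Of the genes looked for in salicylic acid and jasmonate defence, 3 of 12 were found and none was called.

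In KEGG hormone signal transduction 23 of 278 members rose and 5 fell on both scales (77 and 5 as deposited), and among 90 genes of auxin-activated signaling 14 rose and none fell (40 and 0 as deposited). The auxin count on both scales was 20 without the first S1 library and 3, 1, 4, 1 and 6 without the others in order, and the hormone count 35, then 11, 6, 5, 6 and 19. Bo1g151890, an AUX/IAA-type auxin-responsive protein that represses auxin responses until it is degraded, rose from 17.7, 9.71 and 10.1 to 78.6, 117 and 66.9 FPKM (log2 fold change 2.73 ± 0.31 SE, adjusted p = 0.0059, 2.02 after scaling). Bo5g093140 of the same description rose from 2.32, 0.881 and 0.7801 to 8.09, 16.5 and 12.5 FPKM (log2 fold change 2.53 ± 0.36 SE, adjusted p = 0.0081, 1.99 after scaling). Bo3g066910 went from 3.29, 0.932 and 1.74 to 30.6, 28.9 and 9.24 FPKM (log2 fold change 2.91 ± 0.53 SE, adjusted p = 0.013, 2.31 after scaling). Bo5g121480, a JAZ repressor of jasmonate responses, rose from 1.19, 0.791 and 0.286 to 12.6, 16.97 and 20.6 FPKM (log2 fold change 3.34 ± 0.29 SE, adjusted p = 0.0051, 2.84 after scaling). The GRAS transcription factor Bo1g070830 was nearly absent from S1, with 0.2804, 0 and 0.106 FPKM, and had 36.8, 50.7 and 16.2 FPKM in S3_C (log2 fold change 4.84 ± 0.42 SE, adjusted p = 0.0051, 4.43 after scaling). Bo1g070830 held on both scales whichever single library was left out. Bo1g151890 and Bo5g093140 held only without S1_1 (adjusted p up to 0.082 and 0.1). Bo3g066910 held only without S1_1 or S3_C_3 (adjusted p up to 0.14). Bo5g121480 did not hold without S3_C_2 (adjusted p up to 0.052).

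Of 13 genes of sugar sensing and starch looked for, 7 were tested, none rose and 2 fell on both scales, *PGM* (Bo9g103620) by a log2 change of -1.16 (adjusted p = 0.021) and *GPT2* (Bo1g098630) by one of -1.13 (adjusted p = 0.04). The lower count was 1 without S1_2 and 0 without each of the other libraries. A pair of class II trehalose phosphate synthase genes rose, which are regulators rather than active enzymes in *Arabidopsis*. *ATTPS9* (Bo8g075000) rose from 4.63, 0.0372 and 0.465 to 52.2, 32.6 and 75.9 FPKM (log2 fold change 4.66 ± 0.68 SE, adjusted p = 0.0084, 4.12 after scaling), and *ATTPS11* (Bo9g025760) from 0.998, 0.602 and 0.897 to 9.95, 10.01 and 8.801 FPKM (log2 fold change 2.53 ± 0.20 SE, adjusted p = 0.0051, 2.02 after scaling). Outside that group, *BGLU11* (Bo5g003420), a beta-glucosidase, rose from 0.458, 0.307 and 0.154 to 12.1, 11.5 and 11.7 FPKM with little spread (log2 fold change 3.30 ± 0.20 SE, adjusted p = 0.0044, 2.87 after scaling). Bo9g069740, a thiolase family protein, rose from 7.07, 6.02 and 2.68 to 67.2, 57.97 and 149 FPKM (log2 fold change 3.83 ± 0.46 SE, adjusted p = 0.0062, 3.17 after scaling), and *RSH2* (Bo5g131760), a plastid enzyme of the stringent response, from 7.74, 4.32 and 2.74 to 43.7, 25.2 and 23.2 FPKM (log2 fold change 2.45 ± 0.39 SE, adjusted p = 0.0098, 1.79 after scaling). ATTPS11 and BGLU11 held on both scales whichever single library was left out. ATTPS9 and RSH2 held only without S1_1 (adjusted p up to 0.1 and 0.12). Bo9g069740 held only without S1_1 or S3_C_3 (adjusted p up to 0.064). The S3_S values of ATTPS9 were 43.9, 62.6 and 112 FPKM and overlapped with those of the white center. In starch and sucrose metabolism as a whole 7 of 135 members rose and 8 fell, with 3 to 9 and 1 to 8 when single libraries were left out.

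**Figure D5:**
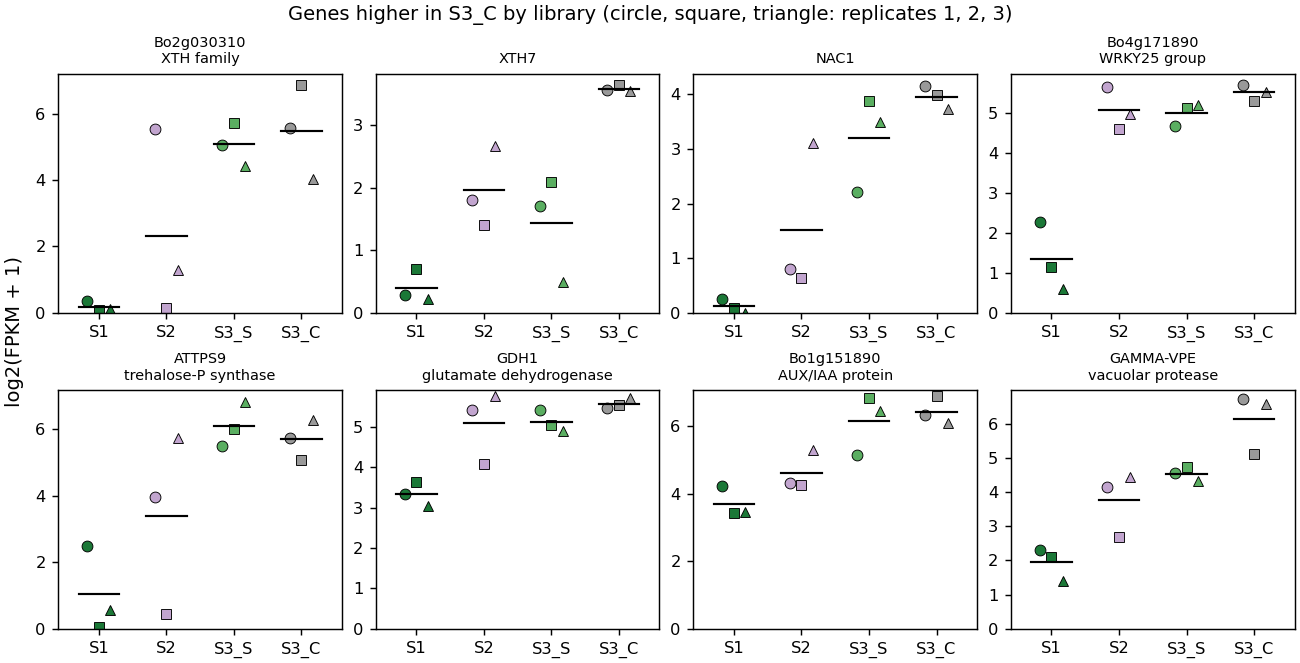
Level of 8 genes that were higher in S3_C in each library as log2(FPKM + 1), in panels with their own axes; points are single libraries, bars are group means, and symbols give the replicate number. In each panel all S3_C libraries lie above all S1 libraries.

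Clock and light genes moved in both directions. In the KEGG circadian pathway 5 of 40 members rose and 3 fell. Bo5g002760, LHY, a morning transcription factor of the clock, lay outside the naming rule by its low level and was chosen after its values were seen. It had 0.305, 0.151 and 0.0975 FPKM in S1 and 7.56, 4.15 and 5.39 FPKM in S3_C (log2 fold change 2.47 ± 0.27 SE, adjusted p = 0.0058, 2.10 after scaling). A pair of genes of the phytochrome-interacting factor PIF3 rose, Bo5g009910 from 2.61, 2.91 and 1.29 to 14.4, 14.01 and 13.8 FPKM (log2 fold change 2.24 ± 0.24 SE, adjusted p = 0.0057, 1.65 after scaling) and Bo8g111120 from 3.52, 2.73 and 1.92 to 9.74, 10.3 and 12.99 FPKM (log2 fold change 1.70 ± 0.23 SE, adjusted p = 0.0072, 1.097 after scaling). Bo3g069000, HY5-like, a promoter of greening in light, fell from 22.9, 7.08 and 23.4 to 1.498, 1.27 and 0.551 FPKM (log2 fold change -3.02 ± 0.49 SE, adjusted p = 0.01, -3.55 after scaling). Bo5g002760 did not hold without S1_3 (adjusted p up to 0.056). Bo5g009910 did not hold without S3_C_1 or S3_C_2 (adjusted p up to 0.062). Bo8g111120 held only without S1_1 (adjusted p up to 0.11). Bo3g069000 held only without S1_1 or S1_2 (adjusted p up to 0.071). Leaving out single libraries gave 1 to 6 higher and 0 to 3 lower members of the pathway. The time of day of sampling is not given in the sources used here, and its part in these values was not tested.

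Of 28 cold-response genes looked for, 5 were found and only *ELIP2* was called. This early light-induced protein, which binds freed chlorophyll under stress, fell from 31.8, 15.4 and 35.3 to 0.161, 0 and 0.09699 FPKM (log2 fold change -4.64 ± 0.34 SE, adjusted p = 0.0045, -5.01 after scaling). *COR78* (Bo2g047960), a cold-induced gene chosen after its values were seen, was already high in S1 at 1152, 697 and 237 FPKM, and the S3_C values of 1870, 1251 and 1263 FPKM did not pass the test (log2 fold change 1.32 ± 1.31 SE, adjusted p = 0.49, 0.58 after scaling). Under the term for response to cold 4 members rose and 8 fell of 54, with 0 to 3 and 0 to 7 when single libraries were left out. ELIP2 held on both scales whichever single library was left out.

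A few genes of secondary metabolism fell. *FLS1* (Bo9g174290), flavonol synthase, was even across S1 at 61.4, 68.7 and 62.1 FPKM and fell to 4.44, 2.401 and 1.05 FPKM (log2 fold change -4.27 ± 0.35 SE, adjusted p = 0.0051, -4.88 after scaling). Bo8g088480, of the chalcone isomerase family at an earlier flavonoid step, fell from 26.4, 60.7 and 49.8 to 11.6, 6.95 and 10.8 FPKM (log2 fold change -2.06 ± 0.35 SE, adjusted p = 0.012, -2.75 after scaling). The row Bo2g155840;Bo2g155870, described as glucoside glucohydrolase, a myrosinase that cleaves the glucosinolates of *Brassica*, fell from 75.6, 173 and 156 to 13.6, 7.28 and 7.29 FPKM (log2 fold change -3.68 ± 0.40 SE, adjusted p = 0.0057, -4.37 after scaling). All of these were also low in the green margin, at 2.34, 1.11 and 0.568 FPKM for FLS1 and 15.96, 2.57 and 3.1 FPKM for the myrosinase row. Of the 34 members of the flavonoid pathway 3 fell and none rose, with 1 lower without S1_3 or S3_C_2. The myrosinase row was the 1 gene called of 6 tested for glucosinolate synthesis and breakdown, and of 15 members of the KEGG glucosinolate pathway none was called on both scales, with a median log2 fold change of 0.18 (-0.25 after scaling). FLS1 and Bo2g155840;Bo2g155870 held on both scales whichever single library was left out. Bo8g088480 did not hold without S1_3 or S3_C_2 (adjusted p up to 0.056).

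Several of the largest changes fell on genes with little annotation. Bo8g082410, annotated with redox homeostasis, had 91.9, 421 and 137 FPKM in S1 and was listed at 0 in all 3 S3_C libraries (adjusted p = 0.0045). Bo9g065530, annotated with protein dimerization, was listed at 0 in all 3 S1 libraries and had 32.3, 28.7 and 38.6 FPKM in S3_C (adjusted p = 0.0044). No fold is given for either. Bo4g021130, a methyltransferase by annotation, fell from 63.4, 86.7 and 42.3 to 1.01, 1.11 and 0.574 FPKM (log2 fold change -5.05 ± 0.29 SE, adjusted p = 0.0044, -5.57 after scaling), and the GDSL lipase Bo8g030940 from 29.5, 81.9 and 70.3 to 3.47, 1.43 and 0.171 FPKM (log2 fold change -4.60 ± 0.60 SE, adjusted p = 0.0069, -5.14 after scaling). Bo9g154010, an aspartic endopeptidase, had 0, 2.601 and 0 FPKM in S1 and 49.7, 60.9 and 61.8 FPKM in S3_C (log2 fold change 5.25 ± 0.52 SE, adjusted p = 0.0054, 4.83 after scaling). Bo8g082410, Bo9g065530, Bo4g021130 and Bo8g030940 held on both scales whichever single library was left out. Bo9g154010 did not hold without S1_3 or S3_C_2 (adjusted p up to 0.054).

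Among the risen genes of this kind, 3 were annotated as oxidoreductases. Bo7g110140 rose from 0.598, 0.04297 and 0.0458 to 34.7, 54.8 and 64.9 FPKM (log2 fold change 5.40 ± 0.30 SE, adjusted p = 0.0044, 4.97 after scaling). Bo8g099460, a dioxygenase, rose from 0.677, 3.46 and 2.42 to 152, 65.4 and 46.1 FPKM (log2 fold change 4.73 ± 0.55 SE, adjusted p = 0.006, 4.14 after scaling). Bo1g056950, a heme-binding monooxygenase, rose from 0.0911, 0.401 and 0.3302 to 17.1, 49.1 and 68.8 FPKM (log2 fold change 4.98 ± 0.50 SE, adjusted p = 0.0055, 4.54 after scaling). The membrane proteins Bo5g003250 and Bo7g118060 and the hydrolase Bo2g080620 rose by 5.12, 4.80 and 4.75 on the log2 scale (4.73, 4.16 and 4.34 after scaling). Bo7g110140, Bo7g118060 and Bo2g080620 held on both scales whichever single library was left out. Bo8g099460 did not hold without S1_3 or S3_C_2 (adjusted p up to 0.059). Bo1g056950 and Bo5g003250 did not hold without S3_C_2 (adjusted p up to 0.054 and 0.054).

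Markers of other leaf tissues bear on the sampling of leaves without veins against leaf centers. Of 16 xylem and fibre markers 4 were measured and none was called, with summed levels of 7.56 to 13.1 FPKM in S1 and 10.5 to 15.5 FPKM in S3_C. *CESA4* (Bo7g066970) and *CESA8* (Bo7g106250), cellulose synthases of secondary walls, had 2.47, 2.55 and 2.06 and 1.93, 2.24 and 0.941 FPKM in S1 and 3.98, 2.95 and 2.97 and 2.98, 2.38 and 2.53 FPKM in S3_C (log2 fold change 0.35 ± 0.22 SE, adjusted p = 0.28, -0.19 after scaling for CESA4, and log2 fold change 0.46 ± 0.28 SE, adjusted p = 0.27, -0.03 after scaling for CESA8). The names CESA7, SUC2, FAMA and ATML1 were not matched to rows, and none of 9 phloem markers was. Of 8 guard cell markers 1 was measured above 0, at 0.535 to 0.948 FPKM in S1 and 1.11 to 1.80 FPKM in S3_C, and was not called. Of 8 epidermis markers 2 were found, and *CER5* (Bo6g042620), a wax exporter, was called on the deposited scale only, with 35.01, 32.7 and 26.6 against 60.6, 76.7 and 115 FPKM (log2 fold change 1.35 ± 0.28 SE, adjusted p = 0.018, 0.63 after scaling), and lost that call without S1_2, S1_3 or S3_C_2 (adjusted p up to 0.075). Among 4 reference genes tested, 2 were called higher as deposited and none after scaling.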

How the data were processed

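Poly(A) mRNA of 12 samples was sequenced in paired-end mode. The authors mapped the reads to the Ensembl Plants *B. oleracea* genome with HISAT, assembled and merged transcripts with StringTie and deposited gene levels as FPKM. The submitters' processing notes name HISAT2 2.0 and StringTie 1.3.0. FPKM are not counts, so no count test was run, and depth is known only relative to the first S1 library.

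Values were taken as log2(FPKM + 1), and S3_C was compared with S1 in limma 3.58.1 under R 4.3.3 with a mean-dependent prior, using only these 6 libraries and no block. P-values were Benjamini-Hochberg adjusted over all 43007 genes above 0 in at least 1 library. The same fit was run after median-of-ratios scaling, and the restriction to genes called on both scales was chosen after seeing the data, as was the split of the ribosome pathway. The procedure was tested on simulated data with independent values, no shift of scale and no outlying library. That test does not bear on the dependence on scale and on single libraries. Figures and lists were made in Python 3.11.15 with pandas 2.3.3, numpy 2.4.6 and matplotlib 3.10.9.

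Gene lists came from *Arabidopsis* loci and from the KEGG, GO and description columns of the table, and 99 genes matched the 308 loci looked for. The genes and lists were chosen with earlier results of these data known. Genes named are the 12 largest called changes in each direction and up to 4 called members of each list and direction, with groups that do not overlap and a mean of at least 5 FPKM, plus the study's candidates, variegation genes and tissue markers. Not every gene so chosen is described. Alternatives were other scales, pseudocounts, filters, designs and single libraries left out.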

Additional observations from a re-analysis of the deposited data

Results flagged for a closer look

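The green margin of the same leaf stage (S3_S) was set against the same S1 libraries. S1 cancels in the difference between the effects in S3_C and in S3_S, which is therefore the contrast of S3_C with S3_S, and limma called 2.59% of 42625 genes there. Values below are log2 differences of S3_C against S3_S on the deposited scale, with an adjusted p under 0.05. This contrast was not fitted after scaling or without single libraries. Only named genes called in it are listed, so the list leaves out those that were not. Many were named for their values in the same S3_C libraries. Colour and leaf region differ together here, and their effects cannot be told apart. Among carbon fixation genes the log2 differences were -9.30 for Bo5g155090, -7.42 for CA2, -6.97 for Bo4g137140;Bo4g137150, -5.24 for Bo6g059930, -4.24 for Bo4g144000, -3.70 for GAPB, -3.44 for PRK and -3.37 for Bo3g149690. Photosystem and antenna genes had -4.83 for Bo9g017950, -4.37 for Bo8g021860, -3.88 for Bo9g008350 and -2.73 for Bo6g003410. For photorespiration and ammonium uptake they were -2.76 for Bo5g130300, -1.94 for Bo8g030490 and -1.80 for Bo8g108620. The pigment genes had -2.32 for Bo9g161470 and -1.52 for Bo8g002560, the row Bo4g053780;VAR2 had -1.65, and the methyltransferase Bo4g021130 had -3.25. The effect was larger upward in the white center for ANAC13, at 2.26, and for Bo1g103630, at 3.02.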

How the results depend on the processing

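The count of 7948 genes, 6682 higher and 1266 lower in S3_C, depended on the scale, on the design and on single libraries. Median-of-ratios scaling gave 4348 genes with 1896 higher and 2452 lower, quantile normalization gave 4338 with 2243 higher and 2095 lower, and the genes called on both scales, a set chosen after seeing the data, were 3141 with 1896 higher and 1245 lower. The higher share was 84.1% as deposited and 43.6% after median-of-ratios scaling. Dropping the fold change minimum gave 12151 genes, 10426 of them higher. A linear model without a covariate gave 701 lower genes. With a library-size covariate it called 0 genes, 0 higher and 0 lower, while 1023 had an unadjusted p under 0.05 and limma called the counts above. The covariate was 29486 to 31839 in S1 and 39766 to 40745 in S3_C, so it and the group cannot be told apart. Leaving out single libraries gave 3915 to 8459 genes, 3324 to 6426 higher and 591 to 2033 lower. Same-numbered libraries had correlations of their deviations of -0.13, 0.19 and -0.28, and libraries of unequal number -0.30 to 0.33. The main fit therefore used no block, but 3 libraries in each group cannot settle whether the numbers mark pairs. With the replicate number as a block, 3751 genes were called, 3157 higher and 594 lower.

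In the linear model with the covariate 13 of 98 named genes changed sign, all with adjusted p far over the threshold. Its log2 values were 1.48 for Bo3g069000, -1.33 for ATMPK3, 0.73 for Bo4g053780;VAR2, -0.40 for Bo4g187630, -0.50 for Bo5g009910, 1.08 for Bo5g130300, -0.44 for RSH2, 0.061 for EGY1, 0.092 for Bo8g030490, 7.01 for Bo9g023870, -2.57 for Bo9g133260;Bo9g133270, -0.82 for Bo9g154010 and 0.91 for Bo9g161470. Under every other alternative run on single genes no sign changed. The block took 22 of the 98 below the threshold, and leaving out the third S1 library took 29. Low genes are limited by the pseudocount and by 3 libraries in each group.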

Other observations

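Central metabolism had more lower than higher members on both scales in 3 further pathways, beside 2.89% lower and 4.41% higher over all genes. Of 141 members of glycolysis and gluconeogenesis, which break down and rebuild sugars, 14 were lower and 3 higher. Of 40 members of fatty acid biosynthesis, a plastid pathway, 6 were lower and 2 higher, and 15 were lower after scaling. Of 91 members of glutathione metabolism, which keeps the redox balance, 10 were lower and 2 higher. On the deposited scale the counts were nearly even, with 14 lower and 13 higher in glycolysis and 10 and 9 in glutathione metabolism. Fatty acid biosynthesis had 6 lower and 4 higher on that scale. Leaving out single libraries gave 3 to 14 lower members of glycolysis, 1 to 7 of fatty acid biosynthesis and 3 to 9 of glutathione metabolism, with the highest values without S1_1. Genes of oxidative phosphorylation in mitochondria had 2 lower and 2 higher of 109. Protein processing in the endoplasmic reticulum depended on the scale, with 33 of 183 members higher as deposited and 4 on both scales.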
